A study of Homo sapiens with 8 samples.

Results

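The transcripts of 43 genes that write, read or remove chromatin marks were followed in BEAS-2B, an immortalised bronchial epithelial cell line of human origin, during and after exposure to nickel. The set is defined by gene names and their functions, with no expression threshold in its rule, and holds the subunits of both Polycomb complexes, the enzymes and readers of H3K9 methylation, the DNA methyltransferases with UHRF1 and CTCF, methyltransferases of H3K4, H3K36 and H3K79, and histone deacetylases. All 43 were found among the 25411 genes listed for each library. RNA-Seq had been carried out on 8 libraries, 2 for each of 4 groups. Untreated cells (UT) were the control, and nickel-exposed cells (Ni-E) had grown for 6 weeks with 100 µM of the soluble salt NiCl2. Cells from which nickel had been washed out (Ni-W) came from the same exposure and had then been expanded from single cells in nickel-free medium for more than 6 months. A further group, HCl3, carried the treatment text of Ni-W, but its time without nickel and its relation to Ni-W were not stated. If HCl3 was derived as Ni-W was, both were grown from single cells, while UT and Ni-E were mass cultures. The history of nickel and the choice of a clone therefore cannot be told apart. Ni-W and HCl3 are called the clonal groups below, which for HCl3 rests on the shared treatment text alone. The labels list no engineered allele for any group.

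Polycomb repressive complex 2 (PRC2) methylates histone H3 at lysine 27. Polycomb repressive complex 1 (PRC1) ubiquitinates histone H2A, and its forms with a CBX subunit bind methylated lysine 27. A separate silencing system rests on methylation of H3 at lysine 9, which HP1 proteins read, and on DNA methylation, which DNMT1 copies at each replication with the help of UHRF1. Histone deacetylases remove acetyl groups from histones and act mostly inside co-repressor complexes. Nickel ions are known to interfere with iron-dependent demethylases and with histone acetylation in airway cells, which makes the transcript levels of the opposing enzymes of interest.

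Total counts per library lay between 26383920 and 45692298 reads, and the 43 genes took between 0.463 and 0.485% of them. Levels are given as RPKM (reads scaled to transcript length and to the depth of the library), in which genes can be compared with each other. Differences are log2 fold changes fitted on the read counts, each with its standard error, and a gene is described as having risen or fallen only at an adjusted P value under 0.05. A gene is called when that change also reached 1.5-fold. Every member could be tested in every comparison, since even PHC1, the one with the fewest reads, had at least 94 per library. The culture expressed the keratins KRT7, KRT8 and KRT18 at 144 RPKM or more in every library. The keratins KRT5 and KRT19 were low, with highest values of 0.03 and 0.78 RPKM. The T cell gene CD3E and the alveolar gene SFTPC were at 0 in all 8 libraries. The blood marker CD14, however, was detected in every library, from 1.06 to 4.15 RPKM. The epithelial adhesion genes EPCAM and CDH1 stood at 1.79 RPKM or less, whereas the mesenchymal gene CDH2 ranged from 54.05 to 83.53. Of the mesenchymal genes, FN1 had a mean of 6.98 RPKM in UT and 5.39 in Ni-E but of 82.4 in Ni-W and 119 in HCl3. VIM had a mean of 1468 RPKM in UT and 1521 in HCl3, but of 909.7 in Ni-E and 904 in Ni-W. Mean KRT7 was 266 RPKM in UT and 283 in Ni-E, but 479 in Ni-W and 425 in HCl3. The part of these differences between groups in the results was not tested. Libraries also differed with the GC content of transcripts. Over genes whose normalized counts averaged 50 or more, the rank correlation of the log2 fold change with GC content was 0.39 for Ni-E against UT, 0.05 for Ni-W against UT, 0.28 for HCl3 against UT, -0.18 for Ni-W against Ni-E and 0.38 for HCl3 against Ni-W, and it was -0.48 between the 2 UT libraries themselves. The experiment numbers in the labels were 2 for both Ni-E libraries and 3 and 4 for HCl3, and UT and Ni-W had none, which means that experiment and group cannot be told apart. In bulk cultures, fewer cells of a kind and less RNA per cell cannot be told apart either.

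In 36 of the 43 genes (83.7%) the 4 group means of RPKM lay within 1.5-fold of each other, as they did in 66.2% of all 11197 genes averaging 100 or more normalized counts. Levels spanned a wide range, from 0.55 RPKM for PHC1 in a UT library to 213 RPKM for TRIM28 in a Ni-E library. Across the 5 comparisons 7 members were called at least once (RING1, CBX2, PHC3, TRIM28, SETD1B, HDAC4 and HDAC9), and 5 of these in a comparison with UT. The other 36 were called in none, and 17 members did not pass the test at any fold in any comparison, namely EZH2, RBBP4, RBBP7, RNF2, CBX8, PHC1, EHMT2, SUV39H1, SETDB2, CBX1, DNMT1, DNMT3B, CTCF, SETD1A, DOT1L, HDAC3 and SIRT1. No member passed in all 3 comparisons with UT, which share their control libraries. Of the 59 passes over the 5 comparisons, 12 held whichever single library was left out, namely PHC3 and SETD1B in Ni-E against UT, TRIM28 and CBX3 in Ni-W against UT, HDAC4 in HCl3 against UT, RING1, CBX2, PHC3, TRIM28, CBX3 and CBX5 in Ni-W against Ni-E, and TRIM28 in HCl3 against Ni-W. With trends of GC content and transcript length removed from each library 40 of the 59 passes held. By comparison, 3 of 7 held in Ni-E against UT, 8 of 8 in Ni-W against UT, 9 of 14 in HCl3 against UT, 14 of 20 in Ni-W against Ni-E and 6 of 10 in HCl3 against Ni-W.

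**Figure D1:**
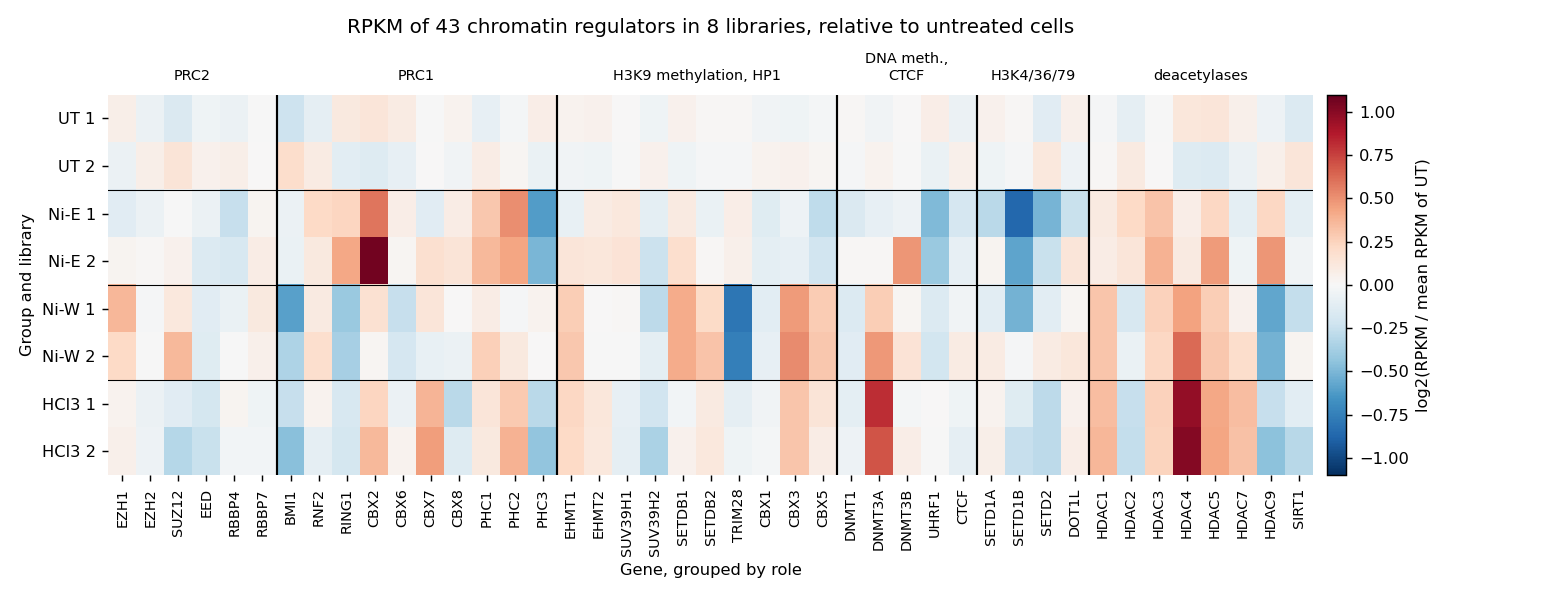
Each column is one of the 43 genes, grouped by role, and each row one library; colour gives log2 of the RPKM over the mean RPKM of UT, from blue (lower) to red (higher). Most columns are pale. The darker cells include CBX2, PHC2, PHC3 and SETD1B in Ni-E, TRIM28, BMI1, CBX3, HDAC4 and HDAC9 in Ni-W, and DNMT3A and HDAC4 in HCl3.

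Nickel exposure itself was addressed by Ni-E against UT. Of the 43 members, 1 was called higher and 2 lower, where 3.75% of all 14478 tested genes were called higher and 2.05% lower. At any fold 7 members passed, or 16.3%, against 11.6% of all tested genes. Restricted to genes whose normalized counts averaged 100 or more, the background of calls either way was 5.74%, and 6.98% of the members were called. The median log2 fold change of the members was -0.03 and that of genes with such counts -0.01. The members that rose were CBX2 and PHC2, and those that fell were PHC3, CBX5, UHRF1, SETD1B and SETD2.

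The washed-out state was addressed by Ni-W against UT. Here the 1 member called was TRIM28, lower in Ni-W, against a background of 4.83% called lower and 10.9% called higher among 15826 tested genes. The edgeR test called the same single gene, and 7 members were higher and 5 lower at an unadjusted P under 0.05. With 8 members past the test at any fold, 18.6% of the set passed, against 31.1% of all genes. Among genes averaging 100 or more normalized counts, 15.3% were called either way, compared with 2.33% of the members. SETDB1, CBX3, CBX5, HDAC1 and HDAC4 rose, and BMI1, RING1 and TRIM28 fell.

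In HCl3 against UT, 14 members passed at any fold, 32.6% of the set beside 31.4% of all tested genes. The 1 member called was HDAC4, higher in HCl3, where 11.1% of 15766 tested genes were called higher and 3.74% lower. Calls either way among genes averaging 100 or more normalized counts were 14.1%. CBX7, PHC2, CBX3, DNMT3A, HDAC1, HDAC4, HDAC5 and HDAC7 rose, while EED, BMI1, PHC3, SUV39H2, SETD2 and HDAC2 fell.

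Ni-W was also set against Ni-E, the comparison in which the set moved most often. In it 1 member was called higher and 4 lower, beside 11.7% and 8.81% of 15989 tested genes. At any fold 20 members passed, or 46.5% against 39.2% of all genes, and 12 of the 20 were higher in Ni-W. Calls either way reached 21.9% of genes averaging 100 or more normalized counts and 11.6% of the members. HCl3 against Ni-W, 2 groups with the same treatment text, gave 1 called member, TRIM28, higher in HCl3, where 3.1% and 1.66% of all tested genes were called higher and lower, and 10 members (23.3%) past the test at any fold where 16.6% of all genes passed. The either-way background at an average of 100 or more normalized counts was 4.49%.

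**Figure D2:**
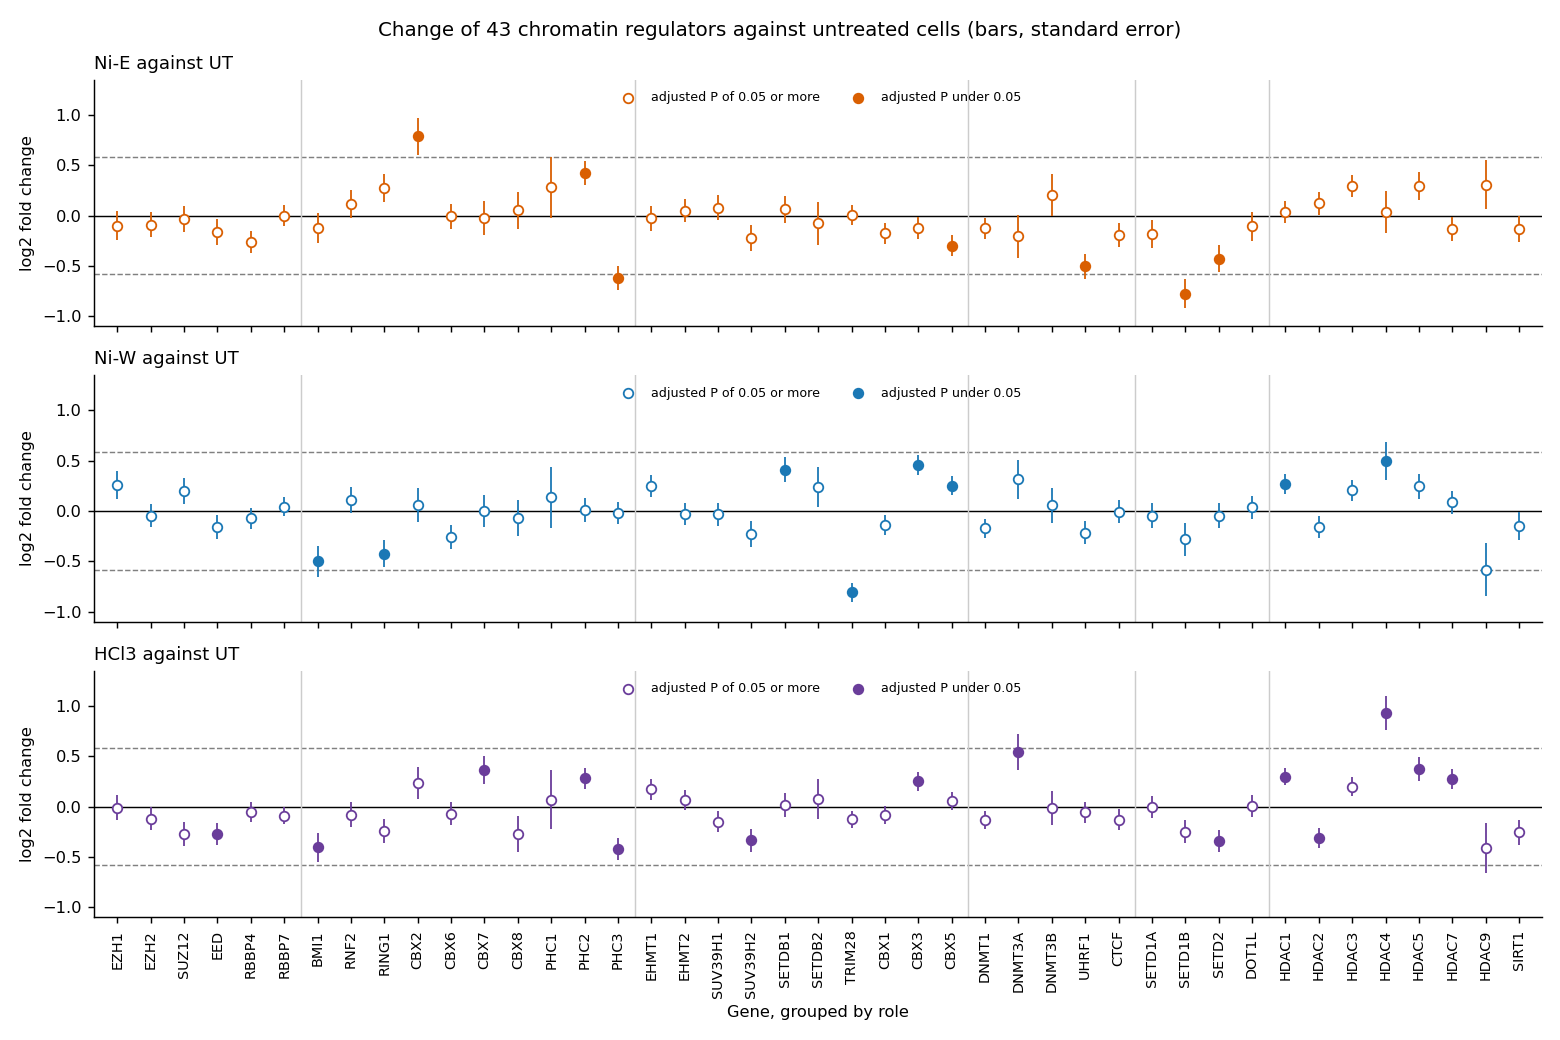
Fitted log2 fold changes of the 43 genes against UT, one panel for each treated group, with standard errors as bars; filled points have an adjusted P value under 0.05 and dashed lines mark 1.5-fold. Filled points beyond a dashed line are CBX2, PHC3 and SETD1B in Ni-E, TRIM28 in Ni-W and HDAC4 in HCl3.

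In PRC2, EZH2 is the main H3K27 methyltransferase of dividing cells, EZH1 its paralogue with weaker activity, SUZ12 and EED the subunits without which neither enzyme works, and RBBP4 and RBBP7 histone-binding subunits that PRC2 shares with deacetylase complexes. EZH2 measured 19.3 and 21.1 RPKM in UT, against 19.3 and 20.4 in Ni-E, 20.1 and 20.1 in the Ni-W libraries and 19.3 and 19.5 in HCl3. Its group means differed by at most 1.04-fold, the smallest span of any member, and every treated library lay within the range of the UT pair or at its edge. EZH1 was lower, at 6.12 and 5.60 RPKM in UT, against 5.38 and 6.00 in Ni-E, 7.54 and 6.84 in the Ni-W libraries and 6.01 and 6.10 in HCl3. Both Ni-W libraries were above the other 6, and EZH1 rose in Ni-W against Ni-E by 0.34 ± 0.13 (adjusted P = 0.0225) without passing against UT. That value was 0.28 (adjusted P = 0.0558) with GC and length trends removed. EZH2 accordingly held 77.5 ± 2.2% (SD, n = 2) of the summed RPKM of the pair in UT, with 77.7 ± 0.70% in Ni-E, 73.7 ± 1.36% in the Ni-W libraries and 76.2 ± 0.08% in HCl3.

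The remaining PRC2 genes moved little. EED fell in HCl3 against UT by 0.27 on the log2 scale with an adjusted P of 0.0487. Its transcripts hold 33.0% GC, and with GC and length trends removed the value was -0.04 (adjusted P = 0.754). SUZ12 fell in HCl3 against Ni-W by 0.47 (adjusted P = 3.42e-05), from 40.3 and 47.6 RPKM to 34.1 and 29.9, and the UT libraries, at 33.3 and 41.1, overlapped both groups. The 87 expressed genes within 5 Mb of SUZ12 had a median of -0.34 in the same comparison, and 79 of them were lower. RBBP7 was among the most abundant members at between 148 and 165 RPKM, and RBBP4 gave between 18.8 and 23.4. Neither passed in any comparison. RBBP4 has 7 pseudogene symbols in RefSeq, and because reads with several alignments had been removed its level is uncertain.

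Of the 10 PRC1 genes, 2 (20%) were called in Ni-E against UT and 3 (30%) in Ni-W against Ni-E, and 0 in each other comparison. Among all genes averaging 100 or more normalized counts, 5.74% and 21.9% were called either way in those comparisons. With GC and length trends removed, CBX2 was the only PRC1 gene called in either. The enzymes of PRC1 are RNF2 and RING1, the E3 ligases for histone H2A, and BMI1 is the partner that stimulates them. RNF2 gave 9.39 and 10.7 RPKM in UT, against 11.7 and 10.9 in Ni-E, 10.8 and 11.4 in the Ni-W libraries and 10.3 and 9.42 in HCl3. Both Ni-E and both Ni-W libraries lay above the UT pair, HCl3 overlapped UT, and no comparison passed. RING1 was at 24.7 and 21.2 RPKM in UT, against 27.0 and 30.9 in Ni-E, 17.3 and 17.8 in the Ni-W libraries and 20.3 and 20.02 in HCl3. Its lowest values were in Ni-W and its highest in Ni-E, and no treated group overlapped UT. RING1 fell in Ni-W against UT by 0.42 on the log2 scale (adjusted P = 0.00709) and against Ni-E by 0.71 (adjusted P = 2.63e-08). With trends of GC content and length removed from each library, the drop from Ni-E was 0.43 on the log2 scale (adjusted P = 0.000868), under 1.5-fold; RING1 transcripts hold 61.6% GC. RNF2 made up 38.7 ± 0.54% of the summed RPKM of both ligases in Ni-W, compared with 30.6 ± 4.25% in UT.

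BMI1 was measured at 18.7 and 25.1 RPKM in UT, against 21.0 and 20.8 in Ni-E, 14.5 and 17.3 in the Ni-W libraries and 18.4 and 15.9 in HCl3. All 4 libraries of the clonal groups were under the lower UT library, and BMI1 fell by 0.50 in Ni-W (adjusted P = 0.00465) and by 0.41 in HCl3 (adjusted P = 0.0147) on the log2 scale. Both values rest on the second UT library. Without it the changes were -0.28 (adjusted P = 0.223) and -0.18 (adjusted P = 0.271), and without the first UT library they were -0.70 and -0.61. The pass in Ni-W also ended without the first Ni-W library, and that in HCl3 without either HCl3 library. BMI1 also lies within the listed read-through gene COMMD3-BMI1, on the same strand, so reads of the 2 cannot be told apart in full. Within 5 Mb, 17 of 23 expressed neighbours of BMI1 were lower in Ni-W than in UT, with a median of -0.26, and 15 of 24 in HCl3, with a median of -0.18. The 3 within 250 kb had a median of -0.35 in Ni-W, with all 3 lower, and of -0.52 in HCl3, with 2 lower and 1 higher.

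The CBX subunits read H3K27 methylation, and each PRC1 particle of the kind that contains a CBX subunit holds 1 of them. CBX2 was found at 3.73 and 3.08 RPKM in UT, against 5.12 and 7.10 in Ni-E, 3.83 and 3.45 in the Ni-W libraries and 4.02 and 4.36 in HCl3. Both Ni-E libraries were above the other 6, and they were the pair of replicates furthest apart. CBX2 rose in Ni-E against UT by 0.79 ± 0.19 (adjusted P = 0.000696) and fell in Ni-W against Ni-E by 0.74 (adjusted P = 6.24e-05). Without the second Ni-E library the rise was 0.55 (adjusted P = 0.279), and without the second UT library it was 0.66 (adjusted P = 0.106). Of the sum of CBX2, CBX6, CBX7 and CBX8, CBX2 took 10.1 ± 0.67% in UT, with 16.2 ± 2.98% in Ni-E, 11.7 ± 0.70% in the Ni-W libraries and 12.1 ± 0.03% in HCl3. The 3 expressed genes within 250 kb of CBX2 were also higher in Ni-E, with a median of 0.43, and 2 of the 3 passed the test.

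CBX6 was the most abundant of the 4, between 15.7 and 19.8 RPKM, and was lower in Ni-W than in Ni-E by 0.26 on the log2 scale (adjusted P = 0.0398), or -0.15 (adjusted P = 0.253) with GC and length trends removed. CBX7 stood at 4.28 and 4.32 RPKM in UT and at 5.58 and 5.93 in HCl3. It rose in HCl3 against UT by 0.37 ± 0.14 (adjusted P = 0.0316) and against Ni-W by 0.37 ± 0.13 (adjusted P = 0.0279), while Ni-E against UT gave -0.03 without passing. With GC and length trends removed neither rise passed, at 0.22 (adjusted P = 0.156) and 0.26 (adjusted P = 0.125). CBX8 ranged from 5.83 to 7.87 RPKM and passed in no comparison.

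The Polyhomeotic subunits PHC1, PHC2 and PHC3 polymerise through their SAM domains and so hold PRC1 particles together. In PHC3 the RPKM was 8.02 and 7.27 in UT, against 5.00 and 5.38 in Ni-E, 7.83 and 7.68 in the Ni-W libraries and 6.21 and 5.66 in HCl3. In PHC2 it was 19.9 and 20.5 in UT, against 28.7 and 27.3 in Ni-E, 19.96 and 21.7 in the Ni-W libraries and 24.7 and 26.3 in HCl3. These paralogues moved in opposite directions in the same groups, with PHC3 low and PHC2 high in Ni-E and HCl3, and both near UT in Ni-W. PHC3 fell by 0.62 in Ni-E (adjusted P = 1.31e-05) and by 0.42 in HCl3 (adjusted P = 0.000479) on the log2 scale, and was higher in Ni-W than in Ni-E by 0.59 ± 0.10 (adjusted P = 3.91e-08), which is just past 1.5-fold. PHC2 rose by 0.42 ± 0.12 in Ni-E (adjusted P = 0.00823) and by 0.28 ± 0.11 in HCl3 (adjusted P = 0.0297). PHC2 thereby took 71.0 ± 1.61% of the summed RPKM of all 3 in UT, with 82.5 ± 1.24% in Ni-E, 71.2 ± 1.36% in the Ni-W libraries and 79.5 ± 1.71% in HCl3. PHC1 contributed between 1.93 and 2.32%.

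The GC content of this pair differs widely, at 37.8% in PHC3 and 60.2% in PHC2, and each moved the way the library-wide GC relation ran. With GC and length trends removed, PHC3 in Ni-E was at -0.25 (adjusted P = 0.17), PHC2 at 0.23 (adjusted P = 0.189), and PHC3 in Ni-W against Ni-E at 0.21 (adjusted P = 0.0785), so all 3 calls or passes were lost under that treatment of the data. In HCl3 against UT the corrected value of PHC3 was -0.29 (adjusted P = 0.00723), which passed, and that of PHC2 was 0.15 (adjusted P = 0.194), which did not. The pass of PHC2 in Ni-E ended without any 1 of the 4 libraries.

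**Figure D3:**
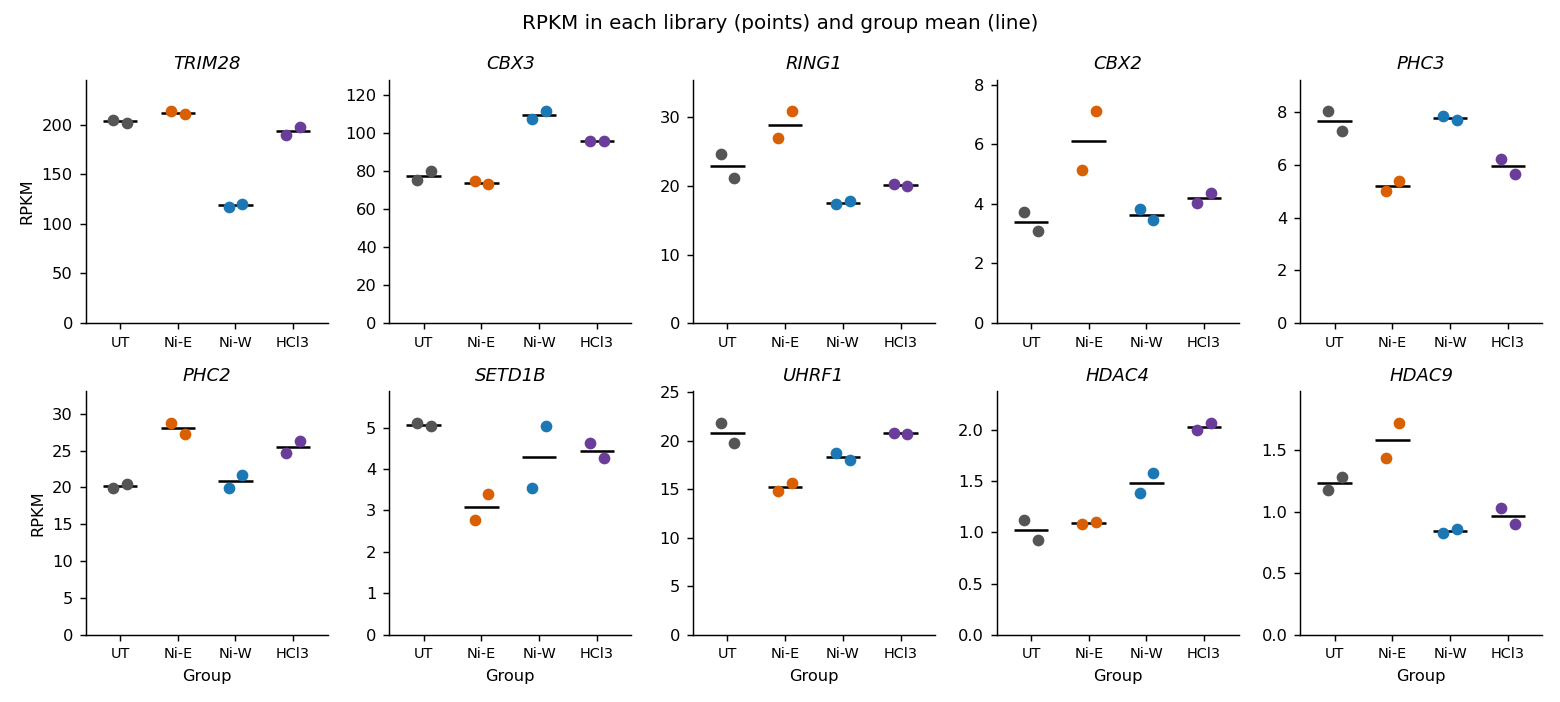
RPKM of 10 members in each library (points) with the mean of the 2 libraries of a group (line), every axis starting at 0. TRIM28 is low in Ni-W alone, PHC3 is low and PHC2 high in Ni-E and HCl3, and HDAC4 is highest in HCl3.

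TRIM28 (also KAP1) is the scaffold that zinc finger repressors of the KRAB class recruit to DNA, and it brings in SETDB1, which trimethylates H3K9, and HP1. It was the most abundant member, with 205 and 202 RPKM in UT, against 213 and 211 in Ni-E, 117.5 and 121 in the Ni-W libraries and 189.6 and 197 in HCl3. Both Ni-W libraries lay far under the other 6, which themselves spanned 189.6 to 213. TRIM28 fell in Ni-W by 0.81 on the log2 scale against UT (adjusted P = 4.55e-16) and by 0.83 against Ni-E (adjusted P = 7.13e-21). In HCl3 it was higher than in Ni-W by 0.69 ± 0.07 (adjusted P = 3.71e-21) and did not pass against UT, with -0.13 and an adjusted P of 0.272. The call against UT held under each of the other tests, scalings and left-out libraries, between -0.86 and -0.77, apart from the subtraction of near neighbours that follows, whereas the difference between HCl3 and Ni-W came to 0.50 with GC and length trends removed (adjusted P = 6.34e-18), under 1.5-fold. TRIM28 transcripts hold 64.2% GC.

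The gene lies on chromosome 19 (hg19, 59055836 to 59062082, plus strand), close to the end of the long arm, and its neighbours moved with it. Of the 16 expressed genes within 250 kb of TRIM28, 16 were lower in Ni-W than in UT, with a median log2 fold change of -0.77, 11 passed the test and 10 were called. UBE2M, a NEDD8-conjugating enzyme, fell by 0.87 on the log2 scale, ZNF324 by 0.95 and ZBTB45 by 0.79. Minus the median of these neighbours, the value of TRIM28 in Ni-W against UT was -0.04. Over the 103 expressed genes within 5 Mb the median was 0.00 and 51 were lower. In Ni-E against UT 5 of 17 near neighbours were lower (median 0.16), in HCl3 against UT 14 of 16 (median -0.25), and all 16 were higher in HCl3 than in Ni-W (median 0.49, 8 past the test). The window of 250 kb was chosen after these values had been seen, and what produced the shared shift was not tested.

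**Figure D4:**
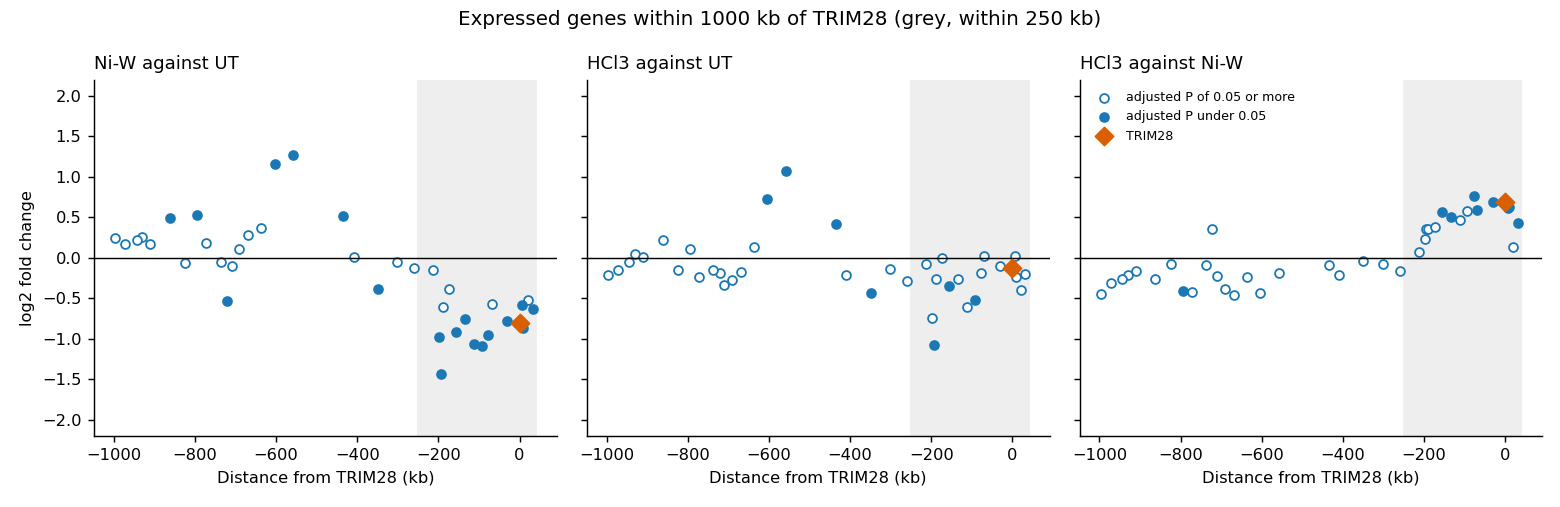
Log2 fold changes of expressed genes against their distance from TRIM28 in kb, for Ni-W against UT, HCl3 against UT and HCl3 against Ni-W; filled circles have an adjusted P value under 0.05, the diamond is TRIM28 and grey marks 250 kb. In the first panel all 16 genes in grey are below 0, and in the last all 16 are above it.

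SETDB1 gave 9.21 and 8.62 RPKM in UT, against 9.56 and 10.2 in Ni-E, 11.8 and 11.8 in the Ni-W libraries and 8.71 and 9.21 in HCl3. It was highest in both Ni-W libraries, the group in which TRIM28 was lowest. SETDB1 rose in Ni-W against UT by 0.41 ± 0.12 (adjusted P = 0.00383) and was lower in HCl3 than in Ni-W by 0.40 on the log2 scale (adjusted P = 0.000687). Its neighbours within 5 Mb, 127 expressed genes, had a median of 0.26 in Ni-W against UT. EHMT1 and EHMT2 form the heterodimer that places mono- and dimethylation on H3K9. EHMT2 stood at 19.1 and 17.9 RPKM in UT, against 19.6 and 20.1 in Ni-E, 18.5 and 18.4 in the Ni-W libraries and 20.1 and 19.98 in HCl3, with no comparison past the test. EHMT1, between 11.6 and 15.1 RPKM, was higher in Ni-W than in Ni-E by 0.26 ± 0.11 (adjusted P = 0.0413), and by 0.22 (adjusted P = 0.0653) with GC and length trends removed. Of the enzymes that trimethylate H3K9 in heterochromatin, SUV39H1 stayed between 17.0 and 20.2 RPKM without passing, and SUV39H2 fell in HCl3 against UT by 0.34 on the log2 scale (adjusted P = 0.0143). The 6 expressed genes within 250 kb of SUV39H2 had a median of -0.34 in that comparison, and 5 of them were lower. SETDB2 was low, between 1.23 and 1.61 RPKM, and passed nowhere.

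CBX1, CBX3 and CBX5 encode the HP1 proteins β, γ and α, which bind methylated H3K9. CBX3 was found at 75.2 and 80.0 RPKM in UT, against 74.5 and 73.0 in Ni-E, 108 and 111 in the Ni-W libraries and 95.9 and 95.6 in HCl3. The clonal groups were above UT and Ni-E without overlap, and Ni-W was above HCl3. CBX3 rose in Ni-W by 0.46 ± 0.10 against UT (adjusted P = 4.88e-05) and by 0.57 ± 0.09 against Ni-E (adjusted P = 3.02e-09), just under 1.5-fold, and in HCl3 by 0.25 ± 0.09 (adjusted P = 0.0237). The 45 expressed genes within 5 Mb of CBX3 had a median of 0.31 in Ni-W and the 46 in HCl3 one of 0.40, so that CBX3 was 0.15 above its neighbours in Ni-W and 0.15 below them in HCl3. CBX3 also has 10 pseudogene symbols in RefSeq.

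CBX5 was at 24.6 and 25.3 RPKM in UT, against 20.6 and 21.5 in Ni-E, 30.2 and 30.7 in the Ni-W libraries and 27.6 and 26.4 in HCl3. The order of the groups was Ni-E, UT, HCl3 and Ni-W, and no neighbours in that order overlapped. CBX5 fell by 0.30 in Ni-E on the log2 scale (adjusted P = 0.0345) and rose by 0.25 ± 0.10 in Ni-W (adjusted P = 0.0296), and the step from Ni-E to Ni-W was 0.54 ± 0.09 (adjusted P = 4.5e-09). With GC and length trends removed the value in Ni-E turned to 0.03 (adjusted P = 0.902) and the step from Ni-E to Ni-W came to 0.19 (adjusted P = 0.0372). CBX1, between 124 and 139 RPKM, passed in no comparison. As shares of the summed HP1 RPKM, CBX1 took 56.9 ± 0.02% in UT, with 56.8 ± 0.36% in Ni-E, 47.4 ± 0.24% in the Ni-W libraries and 51.9 ± 0.38% in HCl3, and CBX3 took 32.6 ± 0.19, 33.6 ± 0.62, 41.2 ± 0.30 and 37.6 ± 0.07%.

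**Figure D5:**
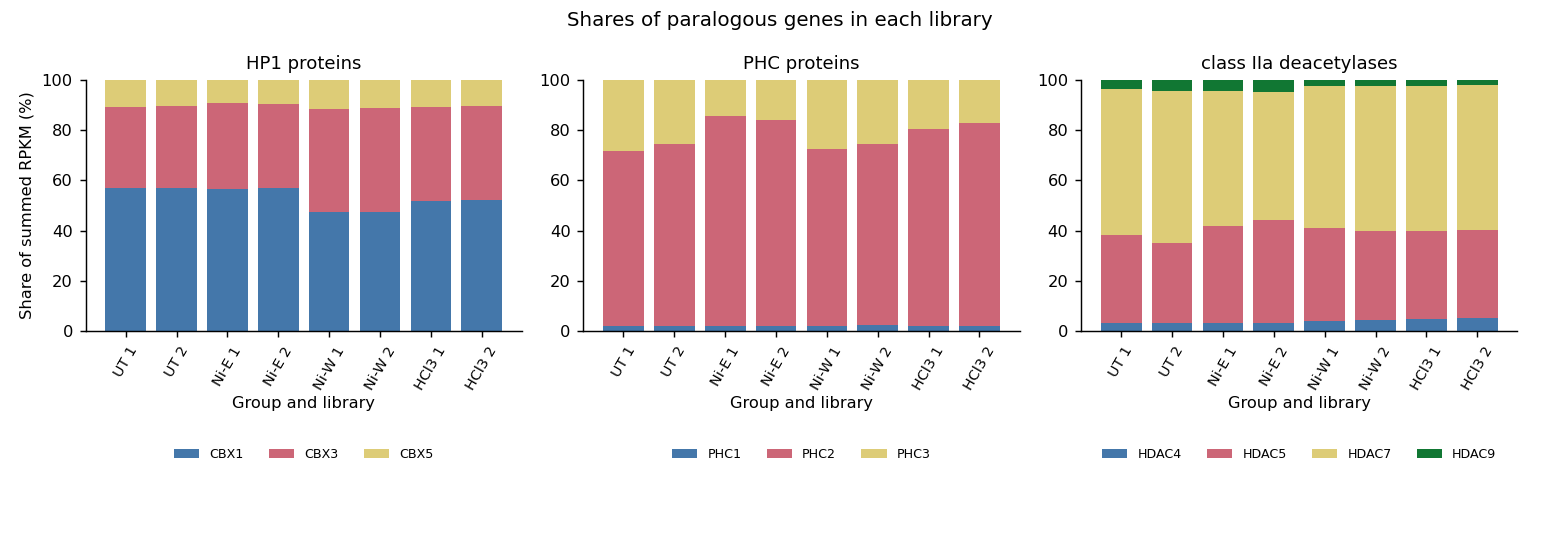
Shares of the summed RPKM, in percent, that each paralogue held in each library, for the HP1 genes, the PHC genes and the class IIa deacetylase genes. In the HP1 panel the CBX3 segment is taller in the Ni-W and HCl3 libraries, and in the PHC panel the PHC3 segment is shorter in Ni-E and HCl3.

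DNMT1 maintains DNA methylation through replication. It measured 52.6 and 51.6 RPKM in UT, against 46.5 and 52.7 in Ni-E, 47.0 and 47.7 in the Ni-W libraries and 48.4 and 50.2 in HCl3. Its group means differed by no more than 1.1-fold and no comparison passed. UHRF1, the ubiquitin ligase that recognises hemimethylated DNA and brings in DNMT1, gave 21.8 and 19.7 RPKM in UT, against 14.8 and 15.7 in Ni-E, 18.7 and 18.0 in the Ni-W libraries and 20.8 and 20.7 in HCl3. Both Ni-E libraries were below the other 6, and UHRF1 fell in Ni-E against UT by 0.51 on the log2 scale (adjusted P = 0.000736), and by 0.57 with GC and length trends removed (adjusted P = 4.46e-07). It missed the threshold of the test without the first UT library (-0.43, adjusted P = 0.0713) and without either Ni-E library (adjusted P = 0.134 and 0.0662). In Ni-W against Ni-E it rose by 0.28 ± 0.10 (adjusted P = 0.0204).

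The de novo methyltransferases were far lower than DNMT1. DNMT3A stood at 2.08 and 2.19 RPKM in UT, against 2.01 and 2.16 in Ni-E, 2.58 and 2.97 in the Ni-W libraries and 3.75 and 3.44 in HCl3. HCl3 was highest and Ni-W next, and neither overlapped UT. DNMT3A rose in HCl3 against UT by 0.54 ± 0.18 (adjusted P = 0.009) and in Ni-W against Ni-E by 0.51 ± 0.20 (adjusted P = 0.0267), but did not pass in Ni-W against UT. The pass in HCl3 ended without the first UT library (0.51, adjusted P = 0.0928) and without either HCl3 library (adjusted P = 0.361 and 0.201). Its share of the summed DNMT RPKM was 3.75 ± 0.18% in UT, with 3.81 ± 0.17% in Ni-E, 5.24 ± 0.43% in the Ni-W libraries and 6.47 ± 0.53% in HCl3. The listed span of DNMT3A, 61139 bases, is shorter than the 114717 bases of the gene in RefSeq, so reads from exons outside it were not part of its value. The same holds for PHC2 (51971 of 107470 bases), HDAC9 (488093 of 915592), CBX8 (2740 of 4946) and DNMT3B (29505 of 46972). It also holds for SETD1B (27925 of 42502), CBX6 (8011 of 10795) and EED (33980 of 42863), and to a smaller extent for some other members. DNMT3B was found at 2.66 and 2.63 RPKM in UT, against 2.54 and 3.70 in Ni-E, 2.69 and 2.94 in the Ni-W libraries and 2.60 and 2.78 in HCl3. Only the second Ni-E library stood apart and no comparison passed.

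CTCF, the insulator protein that also binds unmethylated sites and bounds chromatin loops, was at 19.1 and 20.7 RPKM in UT, against 17.5 and 18.6 in Ni-E, 19.4 and 21.1 in the Ni-W libraries and 19.2 and 18.5 in HCl3. Its groups differed by at most 1.12-fold and no comparison passed, the widest fitted difference being -0.20 in Ni-E.

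SETD1B, which carries the H3K4 methyltransferase activity of one of the COMPASS complexes, had 5.11 and 5.03 RPKM in UT, against 2.78 and 3.39 in Ni-E, 3.54 and 5.03 in the Ni-W libraries and 4.62 and 4.26 in HCl3. Both Ni-E libraries were below the other 6. SETD1B fell in Ni-E against UT by 0.78 on the log2 scale (adjusted P = 4.91e-06), and by 0.80 with GC and length trends removed (adjusted P = 8.21e-09). The 6 expressed genes within 250 kb had a median of 0.27 in that comparison. The Ni-W libraries lay apart, 1 at the level of UT and 1 near Ni-E, and SETD1B was higher in Ni-W than in Ni-E by 0.48 ± 0.17 (adjusted P = 0.0129). Without the second Ni-W library that difference was 0.21, and without the first it was 0.72. SETD1A, the paralogue of SETD1B, ranged from 7.05 to 9.21 RPKM and passed in no comparison.

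SETD2, which trimethylates H3K36 behind elongating polymerase, was at 11.6 and 13.7 RPKM in UT, against 8.90 and 10.7 in Ni-E, 11.7 and 13.5 in the Ni-W libraries and 10.4 and 10.4 in HCl3. Ni-E and HCl3 were below both UT libraries, while Ni-W overlapped UT. SETD2 fell by 0.43 in Ni-E (adjusted P = 0.0163) and by 0.34 in HCl3 (adjusted P = 0.00758) on the log2 scale, and rose by 0.37 ± 0.12 from Ni-E to Ni-W (adjusted P = 0.00567). With GC and length trends removed the fall in Ni-E was at -0.18 (adjusted P = 0.279) and the rise to Ni-W at 0.10 (adjusted P = 0.455), so neither passed. In HCl3, 104 of its 121 expressed neighbours within 5 Mb were lower than in UT, with a median of -0.36, and SETD2 minus that median was 0.02. DOT1L, the H3K79 methyltransferase, gave 7.82 and 7.23 RPKM in UT, against 6.34 and 8.24 in Ni-E, 7.66 and 8.18 in the Ni-W libraries and 7.79 and 7.91 in HCl3, which overlap, and passed nowhere.

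Among the deacetylases, HDAC1 and HDAC2 are the paralogous class I enzymes of the SIN3, NuRD and CoREST complexes. HDAC1 gave 80.5 and 81.8 RPKM in UT, against 86.9 and 86.0 in Ni-E, 100.2 and 100.2 in the Ni-W libraries and 103 and 105 in HCl3. HDAC2 gave 35.5 and 40.7 RPKM in UT, against 44.5 and 41.7 in Ni-E, 33.6 and 36.3 in the Ni-W libraries and 31.9 and 31.9 in HCl3. HDAC1 was higher in both clonal groups than in UT and Ni-E, and HDAC2 was lower in them than in Ni-E. HDAC1 rose by 0.27 ± 0.10 in Ni-W (adjusted P = 0.0226) and by 0.30 ± 0.09 in HCl3 (adjusted P = 0.00404), and HDAC2 fell by 0.31 in HCl3 on the log2 scale (adjusted P = 0.0074) and by 0.30 from Ni-E to Ni-W (adjusted P = 0.00639). The HDAC2 value in HCl3 was -0.19 (adjusted P = 0.00638) after removal of GC and length trends. Of both together HDAC1 made up 68.1 ± 1.83% in UT, with 66.8 ± 0.86% in Ni-E, 74.1 ± 1.04% in the Ni-W libraries and 76.5 ± 0.25% in HCl3. The HDAC2 value in HCl3 sits beside a neighbourhood median of -0.25 over 37 expressed genes, 29 of them lower. HDAC3, the enzyme of the NCoR and SMRT complexes, ranged from 47.8 to 62.5 RPKM. It was lowest in both UT libraries, but no comparison passed, the nearest being Ni-E against UT with 0.29 ± 0.11 (adjusted P = 0.0604).

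HDAC4, HDAC5, HDAC7 and HDAC9 form class IIa, whose members shuttle between cytoplasm and nucleus and repress MEF2 targets. HDAC4 stood at 1.12 and 0.93 RPKM in UT, against 1.08 and 1.1 in Ni-E, 1.39 and 1.58 in the Ni-W libraries and 2.00 and 2.07 in HCl3. Ni-E overlapped UT, Ni-W was above both, and HCl3 was above Ni-W. HDAC4 rose in HCl3 against UT by 0.93 ± 0.17, or 1.91-fold (adjusted P = 3.68e-07), in Ni-W against UT by 0.50 ± 0.19 (adjusted P = 0.0296), and in HCl3 against Ni-W by 0.44 ± 0.14 (adjusted P = 0.0124). The 40 expressed genes within 5 Mb had a median of 0.37 in HCl3 against UT, with 12 called higher. Over the 41 in HCl3 against Ni-W it was 0.44, where HDAC4 minus the median was 0.00. HDAC4 minus its neighbours was 0.56 against UT, under 1.5-fold. The small genes MGC16025 and MIR2467, MIR4440 and MIR4441 lie within HDAC4 on the same strand.

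HDAC9 was measured at 1.18 and 1.28 RPKM in UT, against 1.44 and 1.72 in Ni-E, 0.83 and 0.86 in the Ni-W libraries and 1.03 and 0.90 in HCl3. The 4 libraries of the clonal groups were the lowest and those of Ni-E the highest. HDAC9 fell from Ni-E to Ni-W by 0.91 on the log2 scale (adjusted P = 0.00126), with its neighbours within 5 Mb at a median of 0.31 in that comparison. In Ni-W against UT its value of -0.58 did not pass (adjusted P = 0.0766), and leaving out the second Ni-E library or either Ni-W library ended the pass from Ni-E to Ni-W, with adjusted P values of 0.0853, 0.114 and 0.0573. HDAC5 and HDAC7 rose in HCl3 against UT, by 0.37 ± 0.12 (adjusted P = 0.00757) and 0.28 ± 0.10 (adjusted P = 0.0236), and lay between 9.22 and 14.1 and between 16.8 and 22.9 RPKM. Neither passed after removal of GC and length trends, at 0.19 for HDAC5 (adjusted P = 0.0528) and 0.14 for HDAC7 (adjusted P = 0.105). SIRT1, the NAD-dependent deacetylase, gave 17.3 and 21.0 RPKM in UT, against 17.8 and 18.6 in Ni-E, 16.0 and 19.6 in the Ni-W libraries and 17.7 and 15.5 in HCl3, overlapping UT in each group, and did not pass.

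Several of these genes are known to be transcribed with S phase under E2F factors, and RefSeq promoters (GRCh38.p14, 250 bases before to 50 after each start) were read for 5 E2F-like motifs on both strands, TTTCGCGC, TTTGGCGC, TTTCCCGC, TTTGGCGG and TTTCGCGG. At least 1 of them was found in 7 of the 37 members in the promoter table (18.9%), beside 4.51% of all 27305 genes there. Counted by promoter, it was 8 of 62 for the members (12.9%), beside 3.74% of all 35116. These backgrounds hold genes whether or not they were expressed here. The 7 were CBX3, EZH2, CBX5, SUZ12, EZH1, UHRF1 and DNMT1. A match describes the letters and is not a site. The stretches around the motif are shown for the HP1 genes that rose in Ni-W, for UHRF1, which fell in Ni-E, and for DNMT1 and EZH2, which passed in no comparison, each 5′ to 3′ on the strand of the gene with the motif in capitals. In UHRF1 the capitals join TTTCGCGG with an overlapping TTTCCCGC on the other strand, and in DNMT1 the motif reads on the other strand. They lie at chr7:26201399-26201458 (plus) for CBX3, chr12:54280103-54280160 (minus) for CBX5, chr19:4909443-4909506 (plus) for UHRF1, chr19:10194936-10194995 (minus) for DNMT1 and chr7:148884272-148884330 (minus) for EZH2.
CBX3: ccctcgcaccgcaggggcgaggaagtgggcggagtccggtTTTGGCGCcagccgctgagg
CBX5: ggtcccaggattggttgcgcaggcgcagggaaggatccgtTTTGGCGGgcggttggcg
UHRF1: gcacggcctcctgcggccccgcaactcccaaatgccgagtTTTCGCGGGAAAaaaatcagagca
DNMT1: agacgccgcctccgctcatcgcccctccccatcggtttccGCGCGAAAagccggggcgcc
EZH2: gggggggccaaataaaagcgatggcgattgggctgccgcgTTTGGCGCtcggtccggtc

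Genes of the cell cycle were read beside these members. Summed over 25 proliferation genes, the RPKM was 2455 to 2498 in UT, against 2531 to 2670 in Ni-E, 2488 to 2596 in the Ni-W libraries and 2392 to 2431 in HCl3. In Ni-E against UT, where UHRF1 fell, 0 of the 25 passed at any fold by DESeq2, edgeR or limma, and by DESeq2 4 were higher and 1 lower at an unadjusted P under 0.05. In Ni-W against UT 1 was called higher, TOP2A (0.84 ± 0.10, adjusted P = 8.5e-15), and 1 lower, PCNA (-0.68 ± 0.10, adjusted P = 5.01e-10), the sliding clamp of replication forks.

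Partners of the 43 genes were counted in 6 further lists of 103 genes. Partner values, here and in the next paragraph, are from the DESeq2 fit without removal of GC and length trends. In Ni-E against UT 3 of them were called, all lower, in Ni-W against UT 3 higher and 3 lower, in HCl3 against UT 1 higher and 1 lower, in Ni-W against Ni-E 12 higher and 5 lower, and in HCl3 against Ni-W 1, lower in HCl3. In Ni-E against UT 2.91% of the partners were called lower beside 2.05% of all tested genes, and in Ni-W against Ni-E 11.7% were called higher and 4.85% lower beside 11.7% and 8.81%. In Ni-W against UT 2.91% were called in each direction beside 10.9% higher and 4.83% lower. Methyl-CpG readers and DNA methylation partners, 13 genes, had 2 calls between Ni-W and Ni-E and 1 between Ni-W and UT. Among them PCNA was the gene called lower in both. The 3 called lower in Ni-E were KMT2C (-0.85 ± 0.13, adjusted P = 3.34e-08), KMT2E (-0.76 ± 0.15, adjusted P = 4.77e-05) and the acetyltransferase EP300 (-0.63 ± 0.14, adjusted P = 0.000479). KMT2C is a relative of SETD1B in the family of H3K4 enzymes. Of the 24 other histone methyltransferases listed, 6 passed in Ni-E against UT, all lower. Of all tested genes 11.6% passed there, in either direction. The rank correlation of the log2 fold change with GC content was 0.39 in that comparison. Among the Polycomb partners PCGF6, a ring finger partner of RNF2 in variant PRC1, fell in Ni-W against UT by 0.60 on the log2 scale (adjusted P = 0.00178), and 9 of the 22 were lower and 2 higher past the test in HCl3 against UT, where 31.4% of all tested genes passed in either direction.

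From Ni-E to Ni-W the called partners included the H3K36 methyltransferase ASH1L (0.94 ± 0.11, adjusted P = 6.32e-17), the co-repressor scaffold SIN3A (0.94 ± 0.09, adjusted P = 8.6e-22) and KMT2C (0.85 ± 0.11, adjusted P = 2.61e-12), all higher in Ni-W. Of the 7 cohesin genes and CTCF partners tested, the 6 that passed were all higher in Ni-W, where 39.2% of all tested genes passed in either direction, with STAG1 and NIPBL called (0.96 ± 0.10 and 0.94 ± 0.11, adjusted P = 1.63e-19 and 2.15e-15), whereas CTCF itself was at 0.17 with an adjusted P of 0.191. Of the co-repressor and deacetylase list, SIRT6 fell by 0.75 on the log2 scale from Ni-E to Ni-W (adjusted P = 2.75e-06) and RCOR3, a CoREST scaffold, rose by 0.64 ± 0.13 (adjusted P = 6.15e-06). HDAC10 was the 1 partner called higher in HCl3 against UT (0.62 ± 0.20, adjusted P = 0.00842), and SMYD3, a lysine methyltransferase, the 1 called lower (-0.78 ± 0.11, adjusted P = 2.36e-10). The acetyltransferase KAT2B was the 1 partner called between HCl3 and Ni-W, lower in HCl3 by 0.64 on the log2 scale (adjusted P = 8.85e-07).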

How the data were processed

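Total RNA had been extracted with RNeasy columns, and libraries made with the TruSeq RNA kit were sequenced on an Illumina instrument. Per the labels and the study's methods, the authors aligned reads with STAR 2.4 to hg19, kept no read with several alignments and deposited, for each of 8 libraries, read counts and RPKM per RefSeq gene, made with BioWardrobe. Use of strand in counting was not given in the sources used here. RPKM values were taken as deposited. Counts were fitted for each pair of groups, 4 libraries at a time, with DESeq2 1.42.0 (Wald test, Benjamini-Hochberg adjustment over all genes tested, R 4.3.3). A call needed an adjusted P value under 0.05 and at least 1.5-fold. P values rest on the spread of 2 libraries per group, and total counts of 26383920 to 45692298 bound the counting error. The study's methods give 2 biological replicates for RNA-Seq but do not name HCl3, so this is not known for its pair.

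The members and all lists were chosen with earlier results of these data known. Per-library values are given for every called member and for a fixed choice of key enzymes and readers, ranges for the others, and up to 4 called genes for each related list. Neighbours are genes averaging 50 or more normalized counts whose centres lie within 5 Mb or 250 kb. Alternatives were edgeR 4.0.16, limma 3.58.1 on log2 RPKM after adding 1 or 0.1, TMM factors, a fit over all 8 libraries, a mean count of at least 10, removal of GC and length trends, a replicate block, each library left out, other fold thresholds and subtraction of the neighbourhood median. The 250 kb window and a crossed block for HCl3 against UT were added after the data were seen. Deviations of libraries with the same number correlated at -0.09 (Ni-E and UT), 0.19 (Ni-W and UT), -0.14 (HCl3 and UT), -0.09 (Ni-W and Ni-E) and -0.04 (HCl3 and Ni-W), so the numbers were not taken as pairs. Before use the fits were run on counts simulated from the Ni-W and UT libraries with planted changes of 2-fold or more. No member was called at 2-fold, so the simulation did not cover changes of the size reported for the members.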

Additional observations from a re-analysis of the deposited data

Results flagged for a closer look

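TRIM28 differed between HCl3 and Ni-W, the groups whose treatment text is the same, by 0.69 ± 0.07 on the log2 scale (adjusted P = 3.71e-21 by DESeq2), with 189.6 and 197 RPKM in HCl3 against 117.5 and 121 in Ni-W. All 16 expressed genes within 250 kb were also higher in HCl3, with a median of 0.49, and TRIM28 minus that median was 0.20. Its part in the difference was not tested.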

How the results depend on the processing

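The 59 passes of members were set under 849 alternatives. Of these, 567 kept the direction and, where a P value existed, the side of the threshold. A further 277 kept the direction but lost the adjusted P value, and 5 turned the direction. Values after subtraction of a neighbourhood median have no P value and were counted by direction alone. The 567 thus include TRIM28 in Ni-W against UT at -0.04 after subtraction of the median within 250 kb. The turned values were CBX5 in Ni-E against UT, 0.0275 with GC and length trends removed and 0.0286 with the replicate block added, CBX3 and SETD2 in HCl3 against UT, -0.15 and 0.0190 after subtraction of the neighbourhood median within 5 Mb, and TRIM28 in Ni-W against Ni-E, 0.0203 after subtraction of the median within 250 kb. The cause was not tested.

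The number of members called was 3 in Ni-E against UT, 1 in Ni-W against UT, 1 in HCl3 against UT, 5 in Ni-W against Ni-E and 1 in HCl3 against Ni-W. The replicate block alone left these counts at 3, 1, 1, 5 and 1, and the crossed block gave 1 for HCl3 against UT. At any fold, 29 of the 59 passes stayed past the test with the replicate block, 4 of 7, 7 of 8, 2 of 14 (PHC3 and HDAC4), 12 of 20 and 4 of 10 in the same order, which is given without reading the losses as weaker effects since the numbers were not shown to pair the libraries. With no fold threshold they were 7, 8, 14, 20 and 10, and at 2-fold 0 in each. With limma on log2(RPKM + 1) they were 0 in Ni-E against UT, where 3 members passed at any fold and 5 were higher and 5 lower at an unadjusted P under 0.05, and 3 in Ni-W against Ni-E. With log2(RPKM + 0.1) they were 1 in Ni-E against UT and 2 in HCl3 against UT. With GC and length trends removed they were 2 in Ni-W against UT, 3 in Ni-W against Ni-E and 0 in HCl3 against Ni-W, and with the replicate block as well 1 in Ni-E against UT, 3 in Ni-W against Ni-E and 0 in HCl3 against Ni-W. The fit over all 8 libraries gave 2 in Ni-W against UT. Subtraction of the median within 5 Mb gave 0 in HCl3 against UT, and within 250 kb 1 in Ni-E against UT, 0 in Ni-W against UT, 1 in Ni-W against Ni-E and 0 in HCl3 against Ni-W. Leaving out 1 library gave 2 in each case for Ni-E against UT, 1 to 2 for Ni-W against UT, 1 to 2 for HCl3 against UT, 4 to 5 for Ni-W against Ni-E and 1 to 2 for HCl3 against Ni-W, with the lone library of a group assumed to vary like the other group. With 2 libraries per group, and clone and experiment tied to group, P values cover the spread between these libraries only.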
